A study of Mus musculus with 6 samples.

Results

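Interferon stimulated genes are the genes that a cell switches on when it senses interferon, and 41 of them were followed here in Th17-differentiated T cells of lupus-prone and healthy mice. They were taken by symbol from a list of antiviral effectors, nucleic acid sensors and modifying enzymes, chosen with earlier results of these data known. The list leaves out the STAT, IRF and Ifi200 families and the guanylate-binding and immunity-related GTPases (the Mx genes are kept). All 41 had a row among the 33300 features of the deposited FPKM table. SLE1.2.3 mice, the usual name of a lupus-prone congenic line with the intervals Sle1, Sle2 and Sle3 of chromosomes 1, 4 and 7, gave 3 libraries. Control mice, labelled wild type, gave the other 3. All 6 mice were female and matched for age, though the age is not stated. Naive CD4 T cells of each mouse were grown for 5 days on plates coated with antibodies to CD3 and CD28, with antibodies to IL-4 and interferon-γ at 10 µg/mL each, TGF-β1 at 1 ng/mL, IL-23 at 10 ng/mL, IL-6 at 50 ng/mL and IL-1β at 10 ng/mL. The antibody to interferon-γ was present in both groups, and no library came from cells given an interferon. FPKM is the number of reads per kilobase of gene and per 1000000 assigned reads, and values within a group are listed for mouse 1, 2 and 3 in that order.

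Type I interferons bind a receptor made of the Ifnar1 and Ifnar2 chains, which activates the kinases Jak1 and Tyk2. These phosphorylate STAT proteins, which join Irf9 to form a complex that binds the interferon-stimulated response element, or ISRE, in promoters. Interferon-γ uses a separate receptor and STAT dimers, which bind a different element called GAS. Many of the 41 genes can respond to both kinds of interferon. A raised level of these genes in blood cells, known as the interferon signature, is a familiar feature of human lupus.

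The promoter windows of several members show the element through which this response is usually read. Windows of 250 bases before to 50 bases after a RefSeq start were found for 30 of the 41 genes. The build was GRCm38.p6, the C57BL/6J reference and not the alleles of these mice. An ISRE core, written as GAAA, any 2 bases and GAAA again and searched on both strands, was present in 15 of the 30 genes (50%), against 3.99% of the 27018 genes with a window. Counted by window, it was in 16 of 36 member windows (44.4%), against 3.44% of all 32841 windows. The GAS motif TTCNNNGAA, which reads the same on both strands, was present in 9 of the 30 (30%), against 9.55% of all genes. The 2 motifs overlapped in Ifitm3 and Bst2. The core was in 4 of the 8 windowed members that rose in the test given below, 6 of the 12 that did not pass and 5 of the 10 too low to test. The windows below are each 5′ to 3′ on the strand of the gene, with the ISRE cores in capitals. Isg15, Ifit1, Oas1a and Ifitm3 are shown because they carry more than 1 core and were higher in SLE1.2.3 cells by the tests given below. Ifitm1 is shown because it had the largest change of the 27 tested members, and its window holds no core. That window begins at 140967826, inside the gene as annotated in the deposited data, which starts at 140967221. The bases before that annotated start were not searched.
Isg15: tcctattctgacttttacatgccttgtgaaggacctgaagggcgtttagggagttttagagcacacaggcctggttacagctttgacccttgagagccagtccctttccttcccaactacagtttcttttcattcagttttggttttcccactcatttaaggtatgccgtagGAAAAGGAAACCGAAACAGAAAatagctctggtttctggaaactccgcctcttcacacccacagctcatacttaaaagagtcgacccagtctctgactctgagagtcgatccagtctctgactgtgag
Ifit1: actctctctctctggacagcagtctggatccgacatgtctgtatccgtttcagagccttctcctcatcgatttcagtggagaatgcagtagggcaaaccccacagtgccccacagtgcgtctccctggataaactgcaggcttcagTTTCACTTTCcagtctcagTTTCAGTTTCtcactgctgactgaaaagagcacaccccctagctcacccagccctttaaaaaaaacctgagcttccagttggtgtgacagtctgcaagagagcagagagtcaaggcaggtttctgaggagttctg
Oas1a: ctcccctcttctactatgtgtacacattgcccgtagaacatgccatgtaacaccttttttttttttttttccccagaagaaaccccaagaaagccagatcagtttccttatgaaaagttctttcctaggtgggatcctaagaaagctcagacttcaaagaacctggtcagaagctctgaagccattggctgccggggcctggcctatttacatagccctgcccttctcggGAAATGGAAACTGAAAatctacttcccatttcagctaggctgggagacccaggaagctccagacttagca
Ifitm3: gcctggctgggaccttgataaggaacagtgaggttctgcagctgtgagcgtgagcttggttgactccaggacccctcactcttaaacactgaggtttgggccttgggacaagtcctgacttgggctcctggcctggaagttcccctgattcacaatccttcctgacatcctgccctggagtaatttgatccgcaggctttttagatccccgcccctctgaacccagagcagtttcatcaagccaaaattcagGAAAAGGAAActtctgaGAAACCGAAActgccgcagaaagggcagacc
Ifitm1: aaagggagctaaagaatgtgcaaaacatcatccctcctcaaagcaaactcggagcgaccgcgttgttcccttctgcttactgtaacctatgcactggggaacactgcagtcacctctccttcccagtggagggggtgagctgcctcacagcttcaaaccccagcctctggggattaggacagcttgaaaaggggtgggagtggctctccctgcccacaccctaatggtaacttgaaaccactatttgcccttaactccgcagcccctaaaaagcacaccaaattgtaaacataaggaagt
The cores of Isg15 overlap each other and span bases -78 to -57 from the start, and those of Oas1a span -20 to -5. Those of Ifit1 lie on the other strand at -104 to -95 and -85 to -76, and those of Ifitm3 lie after the start, at 2 to 11 and 19 to 28. The windows lie at chr4:156200769-156201068 (minus strand) for Isg15, chr19:34640639-34640938 (plus) for Ifit1, chr5:120907476-120907775 (minus) for Oas1a, chr7:141010695-141010994 (minus) for Ifitm3 and chr7:140967826-140968125 (plus) for Ifitm1. A match describes the letters of the window and shows no binding.

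**Figure D1:**
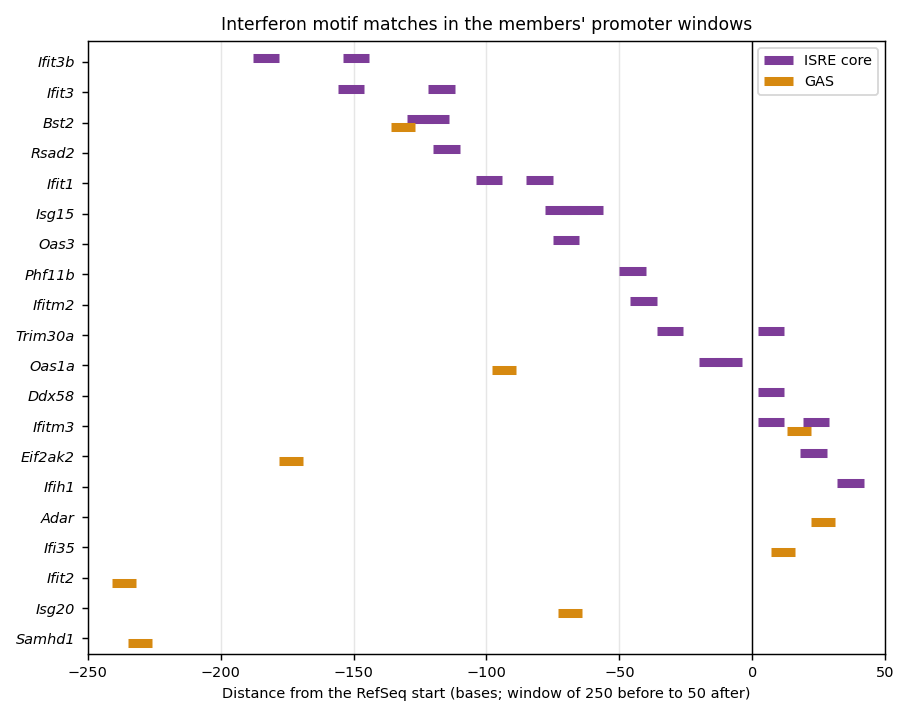
Positions of the ISRE core (purple) and GAS motif (orange) in the promoter windows of the members that hold either motif, as distance in bases from the RefSeq start; each row is a gene and a bar is 1 match. The ISRE cores of Isg15, Oas1a and Bst2 overlap. Those of Ddx58, Ifitm3, Eif2ak2 and Ifih1 lie after the start, as does the core in one of the windows of Trim30a.

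Depth, worked out from the size of 1 read in each FPKM column, lay between 61700000 and 83500000 reads assigned to genes in the SLE1.2.3 libraries and between 29700000 and 56800000 in the control libraries. T cell markers were present in all 6 libraries and the Th17 cytokine gene Il17a was between 1676 and 2275 FPKM in SLE1.2.3 cells and between 394 and 801 FPKM in control cells. Cd4 stood at 257, 144 and 71.6 FPKM in SLE1.2.3 mice and at 246, 264 and 253 FPKM in control mice. Among all 11378 features averaging 1 FPKM or more, 23.9% had every SLE1.2.3 value above every control value. Of 10 markers of CD8 T and NK cells, 9 were above all control values in every SLE1.2.3 library. Their summed level was 226, 1343 and 1981 FPKM in SLE1.2.3 mice and between 32.3 and 45.4 FPKM in control mice, and Ncr1 was under 0.1 FPKM in all. All 6 γδ T cell markers were likewise higher, with sums of 44.5, 197 and 434 FPKM in SLE1.2.3 mice and between 2.08 and 2.41 FPKM in control mice. The 6 B cell markers summed to between 60.8 and 156 FPKM in SLE1.2.3 mice and between 2.55 and 4.38 FPKM in control mice, mostly Igkc in SLE1.2.3 mice, with 3 of 6 higher throughout and Ms4a1 under 0.1 FPKM. Myeloid markers summed to between 3.11 and 12.1 FPKM in SLE1.2.3 mice and between 8.29 and 9.65 FPKM in control mice. Among 5 markers of plasmacytoid dendritic cells, a main source of type I interferon in the body, Siglech and Ccr9 were under 0.1 FPKM in all 6 libraries, while 3 of the 5 (Clec12a, Il3ra and Ccr9) had every SLE1.2.3 value above every control value and Tcf4 had every one below. Clec12a had 0.425, 1.88 and 2.61 FPKM in SLE1.2.3 mice, against 0.047, 0.108 and 0.085 FPKM in control mice, and Il3ra was between 9.94 and 11.1 FPKM in SLE1.2.3 mice and between 9.30 and 9.54 FPKM in control mice. The 5 together summed to between 11.7 and 14.5 FPKM in SLE1.2.3 mice and between 10.9 and 11.2 FPKM in control mice. The 5 markers of other dendritic cells summed to 1.72, 4.22 and 5.78 FPKM in SLE1.2.3 mice and between 0.529 and 0.618 FPKM in control mice. Of these, Xcr1 had 0.901, 3.89 and 5.25 FPKM in SLE1.2.3 mice, against 0.054, 0.043 and 0.060 FPKM in control mice, Zbtb46 was also higher throughout, and Cd209a was at or near 0 in all. The part of these other cells in the results below was not tested. In bulk RNA, more cells of a type and more RNA per cell cannot be told apart.

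Of the 27 members that averaged 1 FPKM or more across all 6 libraries, 13 rose in SLE1.2.3 cells and 0 fell at an adjusted p of 0.05 (21 and 0 at an unadjusted p of 0.05), in a limma fit over all 11378 features that passed the same filter (SLE1.2.3 over control, with log2(FPKM + 1) values and Benjamini-Hochberg adjustment). The 13 are 48.1% of the tested members, where 9.65% of all tested features rose and 5.58% fell at an adjusted p of 0.05. The share of all features at an unadjusted p of 0.05 was not counted, so the 21 has no background beside it. The other 14 tested members did not pass, 8 of them with a positive change and 6 with a negative one. The median log2 change was 0.54 over the 27 members and 0.01 over all tested features. In 19 of the 27 (70.4%) every SLE1.2.3 value lay above every control value, against 23.9% of all tested features. In none of the 27 did every SLE1.2.3 value lie below, against 17.7% of all tested features. Because the members were chosen with earlier results of these data known, these shares describe the list and carry no test. Over all features 1098 rose and 635 fell, or 921 and 881 with quantile normalization, under which 11 members rose and 0 fell.

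Most member calls were lost without SLE1.2.3 mouse 2 or any 1 control mouse, as were most calls over all features. The count of members that rose was 16 without SLE1.2.3 mouse 1, 1 (Ifitm1) without SLE1.2.3 mouse 2 and 10 without SLE1.2.3 mouse 3, where Ifih1, Ly6a, Mx1 and Parp9 were lost and Ifitm2 passed. It was 5 without control mouse 1 (Ifitm1, Ifitm3, Isg15, Xaf1 and Phf11b), 3 without control mouse 2 (Ifitm1, Ifitm3 and Isg15) and 4 without control mouse 3 (these and Xaf1). With SLE1.2.3 mice 2 and 3, whose libraries held the most CD8 and γδ marker RNA, left out together, it was 3, namely Ifitm1, Ifitm3 and Zbp1, from 1 SLE1.2.3 library assumed to vary like the controls. Ifitm1 passed in each of the 18 alternative fits, Ifitm3 in 17 (lost without SLE1.2.3 mouse 2) and Isg15 in 16 (lost there and with mice 2 and 3 left out). Over all tested features, 2128, 170 and 768 rose without SLE1.2.3 mouse 1, 2 and 3, and 221, 188 and 192 rose without control mouse 1, 2 and 3, where 1098 rose with all 6 libraries. Without both SLE1.2.3 mice 2 and 3, 478 did. No member fell in any of the 18.

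**Figure D2:**
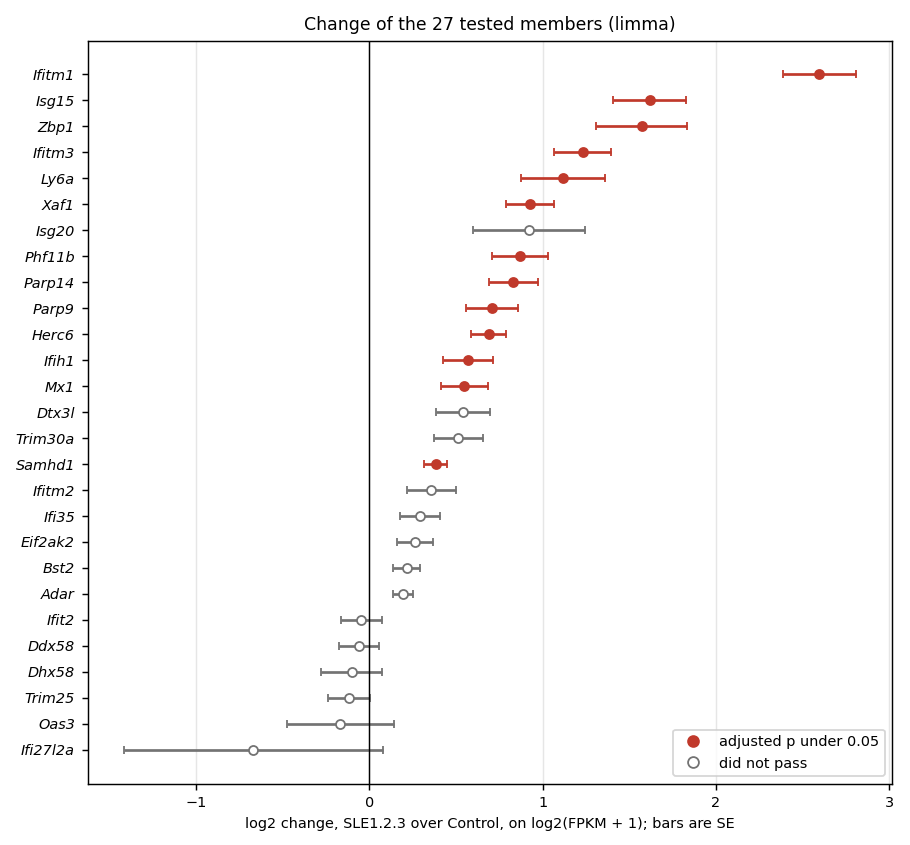
The log2 change of each of the 27 tested members, SLE1.2.3 over control, with its SE from limma; filled red points passed an adjusted p of 0.05 and open grey points did not. The 13 that passed all lie to the right of 0, between 0.38 for Samhd1 and 2.59 for Ifitm1, and the 6 with a negative change all have SE bars that cross 0.

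Of the 10 tested antiviral effectors 5 rose, among them the gene with the largest change of the 27. Ifitm1, one of the interferon-induced transmembrane proteins that hinder virus entry at cell membranes (mm10, chromosome 7, 140967221 to 140969825), had 167, 247 and 277 FPKM in SLE1.2.3 mice, against 36.2, 42.8 and 31.2 FPKM in control mice. The groups were far apart, and its log2 change was 2.59 ± 0.21 (SE, n = 3 each; limma adjusted p = 0.0027). Its neighbour Ifitm3 (chromosome 7, 141009586 to 141010770), which restricts viruses in endosomes, had 171, 143 and 131 FPKM in SLE1.2.3 mice, against 66.7, 72.5 and 50.0 FPKM in control mice, with a log2 change of 1.23 ± 0.17 (limma adjusted p = 0.010). Here SLE1.2.3 library 1 was the highest, whereas for Ifitm1 it was the lowest of its group. Ifitm2, the third gene of the cluster, had 96.2, 88.3 and 68.9 FPKM in SLE1.2.3 mice and 62.4, 72.9 and 60.4 FPKM in control mice, so the groups overlapped and it did not pass (log2 change 0.36 ± 0.14; limma adjusted p = 0.13). Of its 655 exon bases 268 are shared with another annotated gene on the same strand, so its reads may be incompletely counted.

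Isg15, the ubiquitin-like modifier that is attached to proteins during the response (chromosome 4, 156199455 to 156200796), had 7.19, 11.7 and 11.6 FPKM in SLE1.2.3 mice, against 1.89, 3.11 and 2.82 FPKM in control mice. Every SLE1.2.3 library lay well above the highest control, and the log2 change was 1.62 ± 0.21 (limma adjusted p = 0.0097). Samhd1, a dNTPase that starves retroviruses of nucleotides (chromosome 2, 157097533 to 157135265), was well expressed in both groups, at 58.7, 63.6 and 56.8 FPKM in SLE1.2.3 mice and 44.2, 46.8 and 45.7 FPKM in control mice. Its small change of 0.38 ± 0.07 on the log2 scale passed (limma adjusted p = 0.019), and the libraries of each group lay close together. Mx1, a dynamin-like antiviral GTPase annotated in the deposited table as a polymorphic pseudogene (chromosome 16, 97447035 to 97462907), had 2.23, 2.45 and 1.97 FPKM in SLE1.2.3 mice, against 0.871, 1.22 and 1.54 FPKM in control mice (log2 change 0.55 ± 0.13; limma adjusted p = 0.044). A stretch of 920 bases is 94.8% identical between Mx1 and Mx2, so reads of these genes may be split.

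The other effectors above the filter did not pass. Isg20, an exonuclease that degrades viral RNA, had 2.90, 7.81 and 7.91 FPKM in SLE1.2.3 mice, against 2.52, 2.40 and 2.77 FPKM in control mice, so that library 1 of the SLE1.2.3 group lay close to the controls and the other SLE1.2.3 libraries did not (log2 change 0.92 ± 0.32; limma adjusted p = 0.098). Trim30a, a regulator of inflammatory signalling, had 16.2, 16.2 and 15.0 FPKM in SLE1.2.3 mice and 8.38, 12.3 and 12.1 FPKM in control mice (limma adjusted p = 0.059). It shares 1719 aligned bases at 90.1% identity with Trim30d. Bst2, or tetherin, which holds budding virus at the cell surface, had 81.8, 75.1 and 76.0 FPKM in SLE1.2.3 mice and 68.5, 70.6 and 61.2 FPKM in control mice (limma adjusted p = 0.11). Ifit2, an RNA-binding effector of the tetratricopeptide family, had overlapping groups, with 4.41, 4.29 and 3.47 FPKM in SLE1.2.3 mice and 3.56, 4.49 and 4.64 FPKM in control mice (log2 change -0.05 ± 0.12; limma adjusted p = 0.81).

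**Figure D3:**
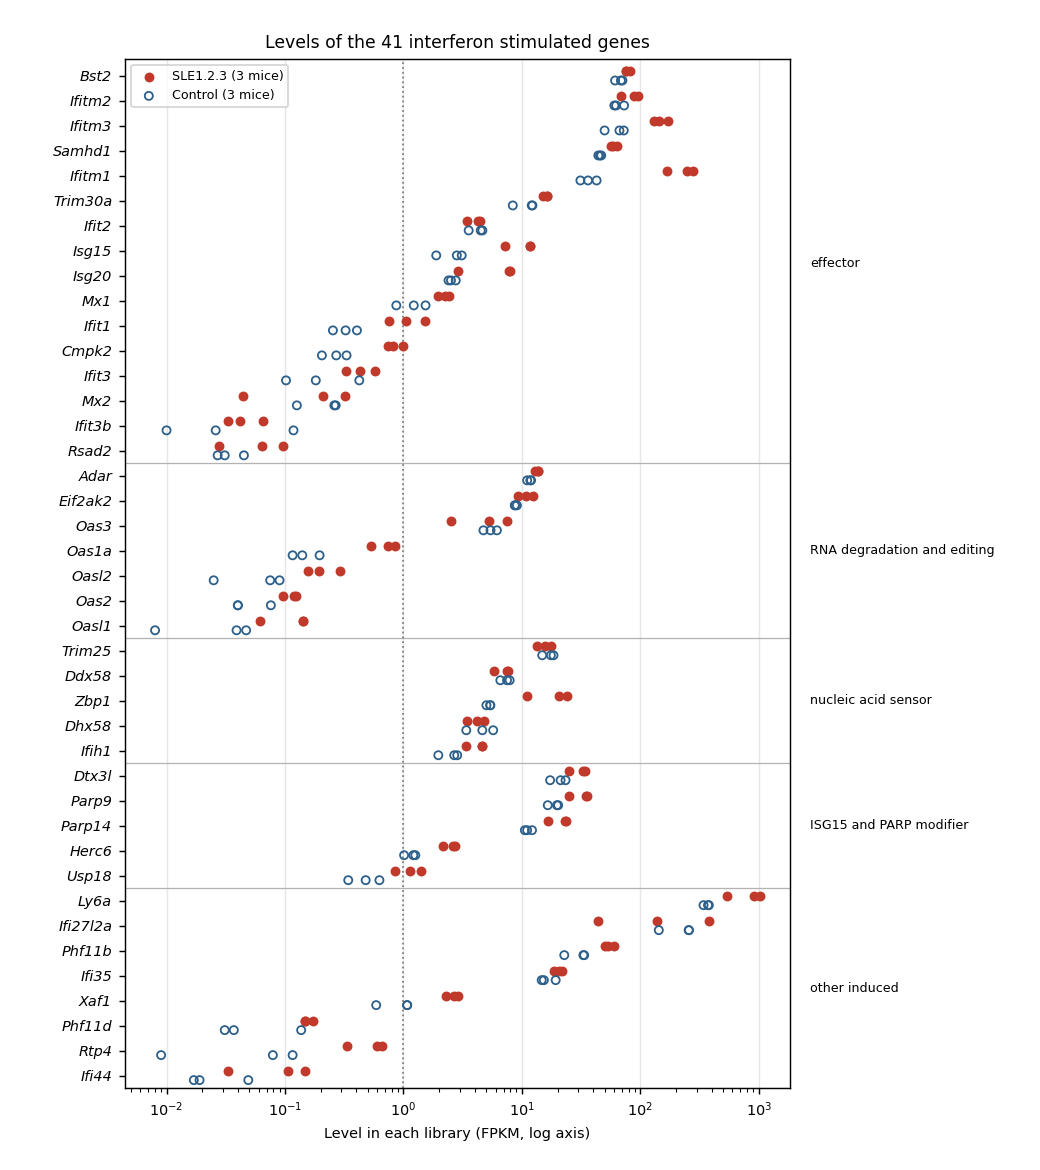
FPKM of all 41 members in each library on a log axis, with SLE1.2.3 libraries as filled red points above the open blue points of the control libraries, grouped by role and ordered by the control mean; the dotted line marks 1 FPKM. Levels run up to the 1027 FPKM of Ly6a in SLE1.2.3 library 3, and of the Oas, Oasl, Ifit and Rsad2 genes all but Oas3 and Ifit2 average under the line.

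Of the 7 members in the group of enzymes that lead to the breakdown or editing of RNA, 3 were tested and 0 passed in limma, though 2 had an unadjusted p under 0.05, and 1 of the 7, Oas1a, rose in the read-based fit described below. Oas3, a synthetase of oligoadenylates, had 7.45, 5.30 and 2.50 FPKM in SLE1.2.3 mice and 4.74, 6.16 and 5.44 FPKM in control mice. SLE1.2.3 library 1 was the highest of all 6 and library 3 the lowest (log2 change -0.17 ± 0.31; limma adjusted p = 0.73). Eif2ak2, the kinase PKR that halts translation on double-stranded RNA, had 9.30, 10.9 and 12.5 FPKM in SLE1.2.3 mice and between 8.72 and 9.08 FPKM in control mice (limma adjusted p = 0.13). Adar, which edits adenosine in double-stranded RNA, had 13.0, 13.7 and 13.6 FPKM in SLE1.2.3 mice and 11.8, 11.1 and 12.0 FPKM in control mice. Its groups did not overlap, yet it did not pass (log2 change 0.19 ± 0.06; limma adjusted p = 0.072), and 1365 of its 8118 exon bases are shared with Chrnb2 on the opposite strand.

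Of the 5 sensors of nucleic acids and their helpers 2 rose. Zbp1, which recognises Z-form nucleic acid and can trigger cell death (chromosome 2, 173206612 to 173218923), had 11.0, 20.8 and 23.9 FPKM in SLE1.2.3 mice, against 5.42, 5.02 and 5.40 FPKM in control mice. The control libraries were nearly equal and SLE1.2.3 library 1 lay between them and the other SLE1.2.3 libraries (log2 change 1.57 ± 0.26; limma adjusted p = 0.018). Ifih1, the long double-stranded RNA sensor MDA5 (chromosome 2, 62595798 to 62646255), had 3.37, 4.64 and 4.57 FPKM in SLE1.2.3 mice, against 1.97, 2.69 and 2.85 FPKM in control mice (log2 change 0.57 ± 0.15; limma adjusted p = 0.049, or 0.052 with voom on the recovered reads). Ddx58, the sensor RIG-I, did not differ detectably, at 7.69, 7.45 and 5.85 FPKM in SLE1.2.3 mice and 6.58, 7.89 and 7.50 FPKM in control mice (limma adjusted p = 0.73). Dhx58, the related helicase LGP2, was between 3.45 and 4.82 FPKM in SLE1.2.3 mice and between 3.39 and 5.73 FPKM in control mice (limma adjusted p = 0.71). Trim25, the ubiquitin ligase that helps activate RIG-I, was between 13.5 and 17.8 FPKM in SLE1.2.3 mice and between 14.8 and 18.5 FPKM in control mice (limma adjusted p = 0.53). The difference between the sensors that rose and those that did not pass was not itself tested.

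Of the 4 tested modifying enzymes 3 rose, and all 4 had every SLE1.2.3 value above every control value. Over all tested features 9.65% rose and 23.9% had every SLE1.2.3 value above every control value. Herc6, the main ligase that attaches Isg15 in mice (chromosome 6, 57581000 to 57664632), had 2.14, 2.60 and 2.73 FPKM in SLE1.2.3 mice, against 1.01, 1.26 and 1.21 FPKM in control mice (log2 change 0.69 ± 0.10; limma adjusted p = 0.013). On the same strand 1269 of its 9292 exon bases are shared with a predicted gene. Parp14, an ADP-ribosyltransferase (chromosome 16, 35832874 to 35871544), had 16.5, 23.0 and 23.7 FPKM in SLE1.2.3 mice, against 11.1, 10.6 and 12.2 FPKM in control mice (log2 change 0.83 ± 0.14; limma adjusted p = 0.019). Parp9, its partner in the same gene cluster (chromosome 16, 35938470 to 35972605), had 25.0, 35.3 and 34.6 FPKM in SLE1.2.3 mice, against 16.5, 20.2 and 19.8 FPKM in control mice (log2 change 0.71 ± 0.15; limma adjusted p = 0.031). In both, SLE1.2.3 library 1 was the lowest of its group and still above every control. Dtx3l, the ubiquitin ligase that binds the Parp9 protein, had 24.9, 33.9 and 32.8 FPKM in SLE1.2.3 mice and 17.3, 21.2 and 23.4 FPKM in control mice and did not pass (log2 change 0.54 ± 0.15; limma adjusted p = 0.062). Parp9 and Dtx3l share 458 exon bases on opposite strands, and without a stated strand setting reads of that stretch cannot be told apart.

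Of the remaining tested members, 3 rose. Ly6a, the surface protein Sca-1 of activated T cells and stem cells (chromosome 15, 74994877 to 74998031), was the most abundant of all 41, with 535, 905 and 1027 FPKM in SLE1.2.3 mice, against 373, 379 and 342 FPKM in control mice (log2 change 1.12 ± 0.24; limma adjusted p = 0.032). Reads of Ly6a may be shared with Ly6c1, which is 96.6% identical over 263 aligned bases, and with Ly6i, 92.6% identical over 336. Phf11b, a PHD finger gene (chromosome 14, 59320964 to 59341351), had 50.1, 60.1 and 53.6 FPKM in SLE1.2.3 mice, against 22.8, 33.1 and 33.6 FPKM in control mice (log2 change 0.87 ± 0.16; limma adjusted p = 0.022), with 864 aligned bases at 97.0% identity to Phf11a. Xaf1, a proapoptotic gene (chromosome 11, 72301629 to 72313733), had 2.29, 2.89 and 2.67 FPKM in SLE1.2.3 mice, against 0.589, 1.07 and 1.08 FPKM in control mice (log2 change 0.93 ± 0.14; limma adjusted p = 0.013). It was the single tested member with a control mean under 1 FPKM, so it passed the filter through the SLE1.2.3 libraries and its direction was in part set by the filter.

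Ifi27l2a, a small membrane protein whose gene responds strongly to interferon in many mouse tissues, differed widely among the SLE1.2.3 mice. It had 380 FPKM in SLE1.2.3 library 1, 139 FPKM in library 2 and 43.7 FPKM in library 3, against 143, 258 and 256 FPKM in control mice (log2 change -0.67 ± 0.75; limma adjusted p = 0.55). The SLE1.2.3 group thus held both the highest and the lowest value of the 6 libraries. Ifi35, which had 18.6, 20.4 and 21.7 FPKM in SLE1.2.3 mice and 19.3, 15.3 and 14.7 FPKM in control mice, did not pass either (limma adjusted p = 0.13).

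**Figure D4:**
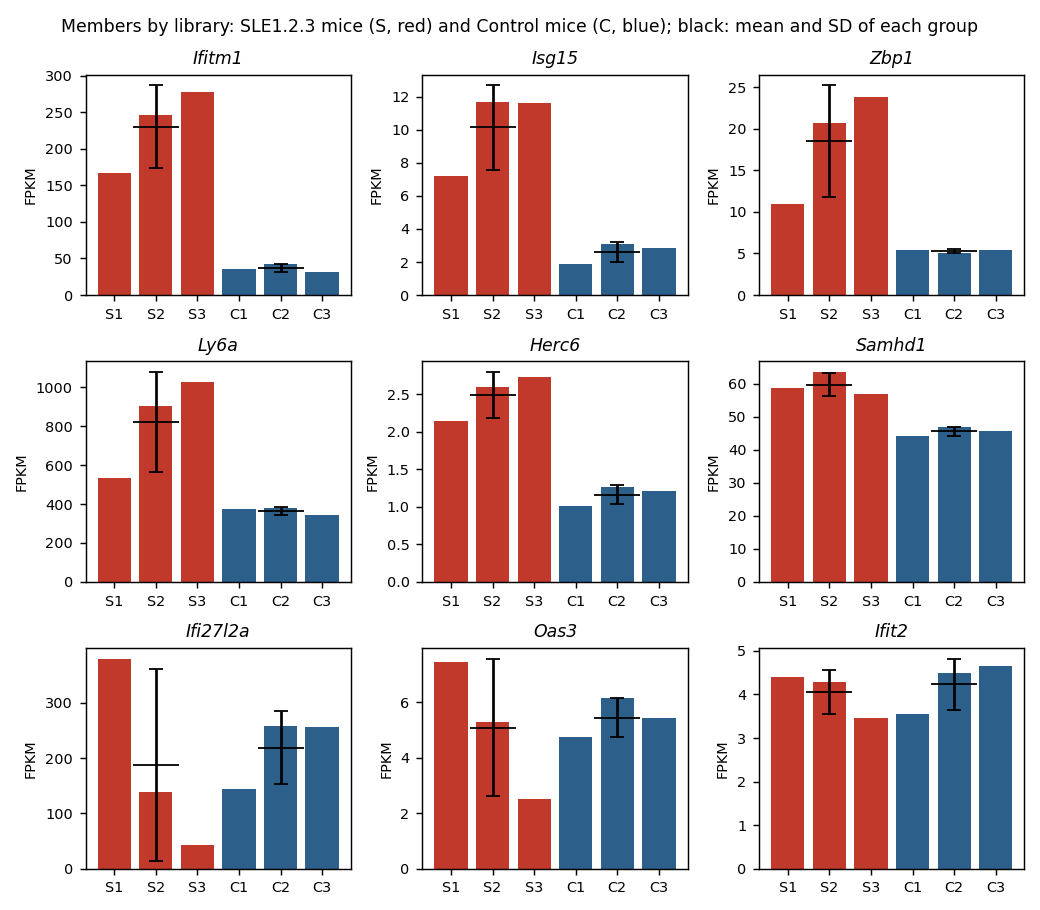
FPKM of 9 members in each library as bars from 0, with SLE1.2.3 mice 1 to 3 in red and control mice 1 to 3 in blue, and the mean and SD of each group in black. Ifitm1, Isg15, Zbp1, Ly6a, Herc6 and Samhd1 are above every control in all 3 SLE1.2.3 libraries, while Ifi27l2a and Oas3 are highest in SLE1.2.3 library 1 and lowest in SLE1.2.3 library 3.

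The 14 members under the filter averaged between 0.0487 and 0.808 FPKM, and include several of the genes best known from the interferon response. Their recovered reads show what that low level holds. Reads are not adjusted for depth, which was lower in every control library than in any SLE1.2.3 library. Oas1a, an oligoadenylate synthetase (chromosome 5, 120896256 to 120907521), had 117, 99 and 75 reads in the SLE1.2.3 libraries, against 11, 15 and 11 reads in the control libraries, which is 0.744, 0.851 and 0.530 FPKM in SLE1.2.3 mice against 0.116, 0.140 and 0.196 FPKM in control mice. Cmpk2, a mitochondrial nucleotide kinase next to Rsad2 (chromosome 12, 26469204 to 26479837), had 285, 254 and 230 reads in the SLE1.2.3 libraries, against 43, 64 and 41 reads in the control libraries. For both genes every SLE1.2.3 library lay above every control, on the FPKM scale as well, which allows for depth. Ifit1, which binds viral RNA caps (chromosome 19, 34640871 to 34650009), had 232, 249 and 150 reads in the SLE1.2.3 libraries, against 34, 49 and 32 reads in the control libraries. On the FPKM scale it had 1.05, 1.52 and 0.752 in SLE1.2.3 mice, against 0.254, 0.325 and 0.405 in control mice. Usp18, the protease that removes Isg15 and dampens the receptor, had 330, 196 and 177 reads in the SLE1.2.3 libraries, against 48, 76 and 52 reads in the control libraries. In FPKM this is 1.42, 1.14 and 0.844 in SLE1.2.3 mice, against 0.342, 0.48 and 0.627 in control mice. Rtp4, a chaperone-like regulator, had 59, 79 and 105 reads in the SLE1.2.3 libraries, against 1, 14 and 5 reads in the control libraries. In FPKM this is 0.332, 0.601 and 0.656 in SLE1.2.3 mice, against 0.009, 0.116 and 0.079 in control mice. On the same strand 296 of the 2131 exon bases of Rtp4 are shared with a predicted gene.

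These low members were tested in an alternative fit, limma voom on the recovered reads with at least 10 reads in at least 3 libraries, which took in 13 of the 14 and 16388 features in all. In it 5 of the 13 rose and 0 fell, and over all members 17 of 40 (42.5%) rose and 0 fell, against 6.91% and 5.6% of all features in that fit. The log2 changes on this scale, reads per 1000000, were 2.20 ± 0.36 for Oas1a (voom adjusted p = 0.016), 1.67 ± 0.24 for Cmpk2 (0.013), 1.70 ± 0.37 for Ifit1 (0.033), 1.27 ± 0.31 for Usp18 (0.046) and 3.27 ± 0.79 for Rtp4 (0.043). Oasl2, which resembles the synthetases, had 83, 115 and 93 reads in the SLE1.2.3 libraries, against 8, 27 and 17 reads in the control libraries. In FPKM this is 0.156, 0.292 and 0.194 in SLE1.2.3 mice, against 0.025, 0.075 and 0.09 in control mice, with no overlap (voom adjusted p = 0.057). Oas2, a synthetase, had 36, 33 and 41 reads in the SLE1.2.3 libraries, against 9, 10 and 10 reads in the control libraries. In FPKM this is 0.097, 0.12 and 0.123 in SLE1.2.3 mice, against 0.04, 0.04 and 0.076 in control mice (voom adjusted p = 0.069). Oasl1, Phf11d, Ifit3 and Ifi44 had positive changes without passing (voom adjusted p between 0.12 and 0.20). Oasl1 and Ifi44 reached 10 reads in no control library, Rtp4, Phf11d and Rsad2 in 1, and Oasl2, Oas2 and Ifit3 in 2. All of these genes met the filter only with the SLE1.2.3 libraries, and their direction was partly set by it. Rsad2, or viperin, had 35, 17 and 9 reads in the SLE1.2.3 libraries and 6, 11 and 4 reads in the control libraries. In FPKM this is 0.097, 0.064 and 0.028 in SLE1.2.3 mice and 0.027, 0.045 and 0.031 in control mice. Mx2 had 97, 47 and 12 reads in the SLE1.2.3 libraries and 23, 55 and 28 reads in the control libraries. In FPKM this is 0.322, 0.211 and 0.044 in SLE1.2.3 mice and 0.126, 0.268 and 0.261 in control mice. Rsad2 and Mx2 did not pass either (voom adjusted p = 0.49 and 0.69). Ifit3b had at most 8 reads in any library and was not fitted, and since 1700 bases are 97.8% identical between Ifit3 and Ifit3b, counts of these genes are uncertain, as are those of Oas1a, which is 97.6% identical to Oas1g over 1861 bases.

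The interferon pathway around these genes was read from a list of 59 ligands, receptors, signalling and sensing genes, of which 49 had a row. Of the 10 type I interferon genes with a row, 6, among them Ifnb1, were listed at 0 in all 6 libraries, and the highest value of the other 4 was 0.123 FPKM, for Ifnk in control library 1. For a gene listed at 0, counting error alone allows an expected count of up to 3 reads. That is 0.0359 to 0.101 per 1000000 assigned reads, depending on the library. Ifng, which encodes interferon-γ, had 22.6, 189 and 422 FPKM in SLE1.2.3 mice, against 1.10, 1.02 and 1.61 FPKM in control mice (log2 change 5.79 ± 0.99; limma adjusted p = 0.019, or 0.087 with voom on the recovered reads). Its protein was the target of an antibody in the medium of both groups. Its SLE1.2.3 levels were lowest in library 1 and highest in library 3. The summed CD8 and NK, γδ, B cell, plasmacytoid and other dendritic cell markers had the same order. The summed T cell and myeloid markers had the opposite order, and the Th17 sum followed neither. The part of Ifng and of these cells in the member changes was not tested.

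Of the 5 tested receptor genes 1, Ifngr1, rose. Ifnar1 had 19.1, 18.1 and 16.7 FPKM in SLE1.2.3 mice and 16.2, 17.4 and 17.7 FPKM in control mice (limma adjusted p = 0.55). Ifnar2 had 11.9, 10.7 and 10.9 FPKM in SLE1.2.3 mice and 10.7, 11.5 and 9.69 FPKM in control mice (0.60), so the levels of both type I receptor chains overlapped between groups. Ifngr1, the ligand-binding chain for interferon-γ, had 95.8, 107 and 101 FPKM in SLE1.2.3 mice, against 56.5, 62.9 and 54.1 FPKM in control mice (log2 change 0.80 ± 0.08; limma adjusted p = 0.0058). Ifngr2, the signalling chain, had 14.2, 9.33 and 6.09 FPKM in SLE1.2.3 mice and between 13.1 and 13.6 FPKM in control mice, and did not pass (limma adjusted p = 0.25).

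Genes of the complex that binds the ISRE were higher, with Stat2 at 15.8, 19.3 and 18.0 FPKM in SLE1.2.3 mice against 9.85, 10.4 and 9.51 FPKM in control mice (limma adjusted p = 0.0069) and Irf9 at 13.9, 14.6 and 13.5 FPKM in SLE1.2.3 mice against 6.79, 8.33 and 7.87 FPKM in control mice (0.0064). Irf7, which amplifies the type I response, had 4.42, 6.09 and 5.13 FPKM in SLE1.2.3 mice, against 1.38, 2.55 and 2.35 FPKM in control mice (limma adjusted p = 0.020). Irf1, an interferon-γ target, had a log2 change of 2.11 ± 0.34 (0.016). Uba7, the enzyme that activates Isg15 for conjugation, had 14.2, 18.3 and 17.2 FPKM in SLE1.2.3 mice, against 7.57, 8.75 and 9.71 FPKM in control mice (limma adjusted p = 0.012), and its partner Ube2l6 did not pass (0.057). The kinase gene Tyk2 and the adaptor genes Myd88 and Ticam1 had log2 changes of 0.39, 0.60 and 0.38 and passed (limma adjusted p = 0.042, 0.028 and 0.023). Tyk2 did not pass with voom on the recovered reads (voom adjusted p = 0.0502). Of the 6 tested brakes 0 passed in limma or voom, and 1, Socs3, had an unadjusted p under 0.05. In all, 11 of 34 tested pathway genes rose and 0 fell (14 and 0 at an unadjusted p of 0.05), and 9 rose and 0 fell in voom. Of all features tested, 9.65% rose and 5.58% fell in limma, and 6.91% rose and 5.6% fell in voom. These shares are at an adjusted p of 0.05, and none was counted at an unadjusted p. The 11 became 4 without SLE1.2.3 mouse 2, 6, 5 and 3 without control mouse 1, 3 and 2 in turn, and 6 without SLE1.2.3 mice 2 and 3, beside the counts over all features given above for the same fits.

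**Figure D5:**
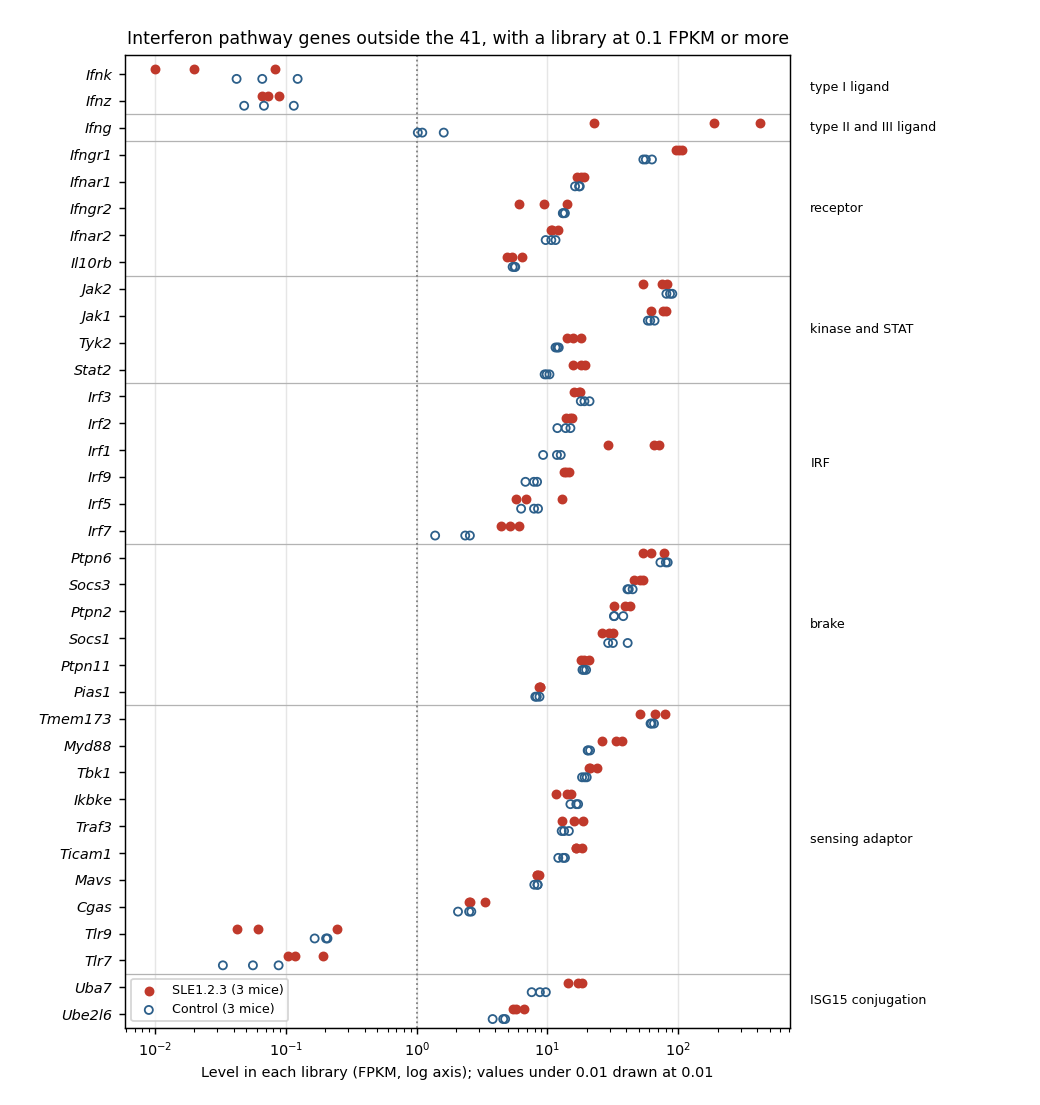
FPKM of interferon pathway genes outside the 41 that reached 0.1 FPKM in some library, on a log axis, with SLE1.2.3 libraries as filled red points above the open blue points of the control libraries; values under 0.01 are drawn at 0.01. The type I ligands drawn, Ifnk and Ifnz, stay at or under 0.123 FPKM, Ifnar1 and Ifnar2 overlap between groups, and Stat2, Irf9, Irf1 and Irf7 are higher in every SLE1.2.3 library.

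The members that rose and those that did not pass were ordered differently among the SLE1.2.3 mice. Of the 13 that rose, 10 (76.9%) had the lowest of their 3 SLE1.2.3 values in library 1, against 45.0% of all tested features, and library 1 was the highest for 1 of them, Ifitm3. Of the 14 that did not pass, 9 (64.3%) instead had their highest SLE1.2.3 value in library 1, against 38.2% of all tested features. The median log2 difference from the control mean over the 13 was 0.56, 1.01 and 0.95 in the SLE1.2.3 libraries 1, 2 and 3, and over the 14 it was 0.17, 0.19 and 0.13. Among control mice, mouse 1 held the lowest control value for 29 of all 41 members (70.7%), and for 16 of the 27 tested ones (59.3%), against 30.9% of all tested features. These shares describe 3 mice a group and carry no test, since the members that rose were chosen by their SLE1.2.3 values and genes of a pathway are not independent.

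The members lie on 14 chromosomes, and the susceptibility intervals of the line are on chromosomes 1, 4 and 7, of which chromosome 1 carries none of the 41. Isg15 and Ddx58 are on chromosome 4, and Isg20, Trim30a and the Ifitm genes are on chromosome 7. Of these 7, 3 rose, namely Ifitm1, Isg15 and Ifitm3, and of the 20 tested members elsewhere 10 rose. Over all tested features 9.65% rose, and shares by chromosome were not counted. Whether these 7 lie inside the intervals was not examined here.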

How the data were processed

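RNA-seq libraries of 6 mice, 3 SLE1.2.3 and 3 control, were read from the FPKM values that the authors deposited for 33300 features, with gene names, positions and biotypes from the same table. The submitters' processing notes name cutadapt 2.10, STAR 2.7.3a, featureCounts 2.0.0, FastQC 0.11.9, DESeq2 1.24.0 and the mm10 build, without saying which step used which. How strand was treated in counting, and the annotation release: not given in the sources used here. Within each library, FPKM times length in kilobases summed to 1000000, so the values are relative to reads assigned to genes. The values were whole multiples of 1 read (100% within 0.15 of a read, for values under 30 reads), which gave reads per gene and depth. No pair of libraries was identical.

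Features averaging 1 FPKM or more across all libraries were tested on log2(FPKM + 1) with limma 3.58.1 in R 4.3.3, using a mean-variance trend and Benjamini-Hochberg adjustment over all tested features at 0.05. Fold changes on this scale understate low genes. The fit, tested on simulated data with known changes, has 3 mice a group, and a p-value from it reflects how these particular mice varied. Alternatives changed the pseudocount, filter, scaling, variance model, library weights, input (voom on recovered reads), mouse number as a block and the libraries used. Overlapping exons came from the annotation, and near-identical genes from blastn 2.17.0 (at least 90% identity over 200 bases within a family). Promoter sequences are from RefSeq (GRCm38.p6).

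The members and all gene lists were chosen with earlier results of these data known. In each role the members past the threshold are given with all 6 values and the others by values, range or count; of the pathway list, genes past the threshold, ligands, receptors and STATs are given, except that some genes of that list, though counted, are not reported here.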

Additional observations from a re-analysis of the deposited data

How the results depend on the processing

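With 3 mice a group, the number of calls depends on single libraries. Of all tested features 1733 were called, against 798 without the filter on low values, 1129 with a mean of at least 5 FPKM, 6952 with array weights (whose iteration stopped before its tolerance), 665 without both SLE1.2.3 mice 2 and 3, and between 240 and 3701 with 1 library left out. Members higher numbered 13 of 27, against 8 of 41 without the filter, 21 with array weights and between 1 and 16 with 1 library left out. Without the filter 6 of the 13 kept their call. Mx1, Ifih1, Zbp1, Parp9, Parp14, Ly6a and Phf11b lost it, and Oas1a and Cmpk2, not tested in the main fit, passed. In the fit without SLE1.2.3 mice 2 and 3, the lone SLE1.2.3 library is assumed to vary like the controls. Members lower numbered 0 under each alternative. Pathway genes called in either direction, whose alternatives were chosen after seeing the data, numbered 11. They numbered 5 without the filter, 24 with array weights and between 3 and 15 with 1 library left out. The median change of the tested members was 0.54, and 0.40 without SLE1.2.3 mice 2 and 3. Rescaling to a common FPKM sum moved the median of all features to 0.125, with 1016 higher and 370 lower. With mouse number as a replicate block 940 features were called, with 11 members and 9 pathway genes; same-numbered mice had correlations of deviations of -0.0040, 0.10 and 0.091 and share only a number, and not every library correlated best with its own number. Members whose change was negative and turned positive passed in neither fit. They were Ifit2 (0.054 with a common sum, 0.021 with array weights, 0.039 without SLE1.2.3 mouse 3, 0.010 without control mouse 3, 0.055 without SLE1.2.3 mice 2 and 3) and Ddx58 (0.044, 0.022 and 0.046 under the first 3 of these settings, 0.066 without SLE1.2.3 mice 2 and 3). Without SLE1.2.3 mouse 3, Oas3 was at 0.18 and Ifi27l2a at 0.12; without control mouse 2, Dhx58 was at 0.042; without SLE1.2.3 mice 2 and 3, Oas3 was at 0.40, Dhx58 at 0.082, Trim25 at 0.068 and Ifi27l2a at 0.84. With 1 library left out, the changes ranged between -0.14 and 0.039 for Ifit2, -0.45 and 0.18 for Oas3, -0.13 and 0.046 for Ddx58, -0.27 and 0.042 for Dhx58, and -1.42 and 0.12 for Ifi27l2a. The cause was not tested.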
